A study of Mus musculus with 8 samples.

Results

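The response to adrenocorticotropic hormone (ACTH) was examined within Siah1a-/- adrenal glands alone, by setting the 2 libraries of ACTH-injected knockout mice against the 2 libraries of untreated knockout mice, 4 of the 8 libraries of the series. Each library is the RNA of 1 adrenal gland from 1 mouse of the strain labelled 129SVEV, and each group holds 1 female and 1 male. All 4 animals were Siah1a-/-, and SIAH1A belongs to a family of ubiquitin ligases that mark proteins for degradation. How the allele was made and which cells lose the protein were not used here. The treated pair had received ACTH into the peritoneum at 100 µg/kg and the glands were taken 1 hour later, whereas the other pair had received no agent. No group injected with vehicle was compared, so an effect of ACTH cannot be told apart from one of injection and handling, and the ages were not used here. The other 4 libraries are wild-type glands in the same 2 states. They enter only the comparison between genotypes.

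ACTH is the pituitary peptide that drives glucocorticoid output from the adrenal cortex. It binds the melanocortin receptor encoded by Mc2r, raises cyclic AMP and activates protein kinase A, which phosphorylates factors of the CREB family at cAMP response elements. Within the first hour this pathway is known to act on preformed steroidogenic proteins and on a wave of early-response genes, among them the NR4A orphan nuclear receptors, the AP-1 factors and feedback regulators of kinases. Steroidogenic enzyme mRNAs are known to respond later. A whole gland also holds capsule, medulla, vessels and, in young females, the transient inner X-zone.

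The 4 libraries held between 11964373 and 15182870 estimated counts. Reads were summed per gene symbol, 14219 of 18846 genes passed the filter on low counts, and levels are given in CPM, which relates the counts of a gene to the size of its library, after TMM scaling, a correction for library composition. Fold changes are ACTH over untreated on the log2 scale with their standard error (SE). In these libraries the transcripts of the sex chromosomes went with the labels, Xist being at 362 and 251 CPM in the females and at 4.02 and 5.87 CPM in the males, each time untreated before ACTH. The 2 ACTH libraries were less alike (Pearson correlation of log2 CPM 0.848) than the 2 untreated ones (0.904), across genes, which are not independent replicates. The cross pairs of an ACTH and an untreated library lay between 0.862 and 0.886. The treated glands were thus less like each other than like either untreated gland. Of the wild-type libraries, the one carrying the label of an untreated male held Xist at 411 CPM, which goes against that label, and 1862 CPM of kidney markers. The ACTH-treated wild-type female held 74192 CPM of liver markers. The cortex genes Star and Cyp11b1 and the medulla gene Th were counted in each knockout library. Reads of close paralogs (Siah1a, Hsd3b1, Cyp11b1, Akr1c18, Hist1h2bc, Serpina3c) may have been split between copies, so these values are uncertain. Unless another order is named, the values of a group are given for the female and then for the male.

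Siah1a mRNA was still counted in the knockout glands, at 21.0 and 25.3 CPM without and 17.4 and 19.0 CPM with ACTH. The wild-type libraries lay between 26.1 and 33.1 CPM on the scale of all 8 libraries, above the 17.4 to 25.2 CPM of the knockout libraries on that scale. Which part of the gene the allele lacks is not known here, so the counts do not check the labels, and reads of the near-identical Siah1b cannot be assigned with certainty. Siah1b stood at 2.26 and 6.20 CPM in untreated and 2.38 and 1.43 CPM in ACTH-treated glands, with overlap between the groups. Siah2, the more distant member of the family, was at 15.2 and 21.6 CPM without ACTH and 32.3 and 33.6 CPM with it (log2 fold change 0.84 ± 0.35 SE). The 2 ACTH values of Siah2 were above both untreated values, but the gene did not pass the test over all genes (edgeR adjusted p = 1.00).

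No gene passed edgeR's quasi-likelihood test within the knockout (0 of 14219, 0%, smallest adjusted p 0.979). At an unadjusted p under 0.05 there were 646 genes, of which 317 were higher after ACTH (2.23% of the genes tested) and 329 lower (2.31%). Limma-voom called 0 genes too, and DESeq2 called 55 at an adjusted p under 0.05, 30 higher (0.22% of 13667 genes with an adjusted p) and 25 lower (0.183%). All 55 lay outside the range of the other group and had an unadjusted edgeR p under 0.05. Counted without a test, 2336 genes (16.4%) were higher in both ACTH libraries than in both untreated ones, and 2537 (17.8%) were lower. These genes had the same direction in all 4 cross pairs of libraries. With 2 libraries per group, shares near these also arise when the libraries are ordered at random. The counts by themselves therefore do not measure a response to ACTH. A stricter description, chosen after the values were seen, asked for at least a 2-fold gap in all 4 cross pairs with 3 counts as the floor. It was met by 244 genes in the upward direction (1.72%) and 340 in the downward direction (2.39%), of which 75 and 133 had a mean log2 CPM of at least 1. Of all tested genes 179 had no counts in a whole group. They passed the filter through the other group alone, so their direction was fixed, and they enter the counts without overlap. Some genes called by DESeq2 were of this kind, Tnnt3 among them, but none of the 75 and 133 was. In what follows "higher" and "lower" describe these 4 animals, and a gene is called only where DESeq2 is named. Most genes were named by a rule, but Fosb, Jund, Junb, Fos, Ier3, Ier5l, Egr1, Sik1, Spry1, Dusp1, Mc2r, Mrap, Cyp11b1, Cyp11b2, Sc5d, Fkbp5, Tsc22d3, Tnnt3, Mki67 and the members that complete a count of 5 or fewer were picked after their values were seen.

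The genes with the smallest p in the upward direction among those with a mean log2 CPM of at least 1 were Apold1, Tfrc, Irf4, Csrnp1, Ppp1r10 and Atf3, and all 6 were called by DESeq2. Apold1 (chr6:134982001-134986836, GRCm38), an early-response gene of endothelial cells, stood at 7.17 and 10.4 CPM in untreated glands and 75.3 and 51.6 CPM after ACTH, a log2 fold change of 2.85 ± 0.38 (SE). The smaller ACTH value was 4.96 times the larger untreated one (edgeR adjusted p = 0.979, DESeq2 adjusted p = 1.40e-06). Tfrc (chr16:32608896-32632794), the transferrin receptor that brings iron into cells, was at 135 and 109 CPM without and 353 and 315 CPM with ACTH (1.45 ± 0.23). The 2 animals of each group were close to each other for this gene. Csrnp1 (chr9:119971163-119984742), a nuclear early-response protein, was at 9.59 and 16.2 CPM and then 52.9 and 106 CPM (2.62 ± 0.46), with the ACTH-treated male at the top. Atf3 (chr1:191170296-191183333), a stress-induced partner of AP-1 factors, was counted at 1.77 and 5.13 CPM in untreated glands and at 31.5 and 32.3 CPM after ACTH (3.20 ± 0.61). The treated female and male were nearly equal for Atf3. Irf4 (chr13:30749233-30766981), a transcription factor best known from lymphocytes and fat, had 7.98 and 9.73 CPM untreated and 37.6 and 42.0 CPM treated (2.17 ± 0.36). For Ppp1r10 (chr17:35916512-35932283), a nuclear targeting subunit of protein phosphatase 1, the pairs were 26.7 and 43.4 CPM and 122 and 107 CPM (1.71 ± 0.31). In each of these 6 genes the treated values left a gap of more than 2-fold to the untreated ones.

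In the downward direction the genes with the smallest p included Cyp2f2, Bhlhe40, Thrb, Lrrn1 and Slc37a2, and these 5 were called by DESeq2 and not by edgeR. Apold1 and Cyp2f2 did pass edgeR when genes with low counts were left in (adjusted p = 0.0402 for each). Cyp2f2 (chr7:27119955-27133660), a cytochrome P450 and X-zone marker, was at 559.7 and 345 CPM untreated against 86.4 and 112 CPM treated (-2.19 ± 0.31, edgeR adjusted p = 0.979, DESeq2 adjusted p = 2.91e-07). Each treated animal lay more than 3-fold below either untreated one. Bhlhe40 (chr6:108660629-108666925), a repressor in the circadian clock, had 144 and 107 CPM without and 38.0 and 36.9 CPM with ACTH (-1.75 ± 0.26). Thrb (chr14:17659225-18040097), a thyroid hormone receptor also used as an X-zone marker, was at 117 and 92.2 CPM and then 40.4 and 37.4 CPM (-1.43 ± 0.25). The treated animals were nearly equal for both of these genes. The membrane protein gene Lrrn1 (chr6:107529726-107570228) held 116 and 64.4 CPM in untreated and 26.2 and 24.1 CPM in treated glands (-1.84 ± 0.35). The sugar phosphate exchanger gene Slc37a2 (chr9:37229149-37255738) held 35.9 and 49.2 CPM and then 9.29 and 12.8 CPM (-1.95 ± 0.37). In each of the 5 genes the treated values lay more than 2-fold below the untreated ones.

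**Figure D1:**
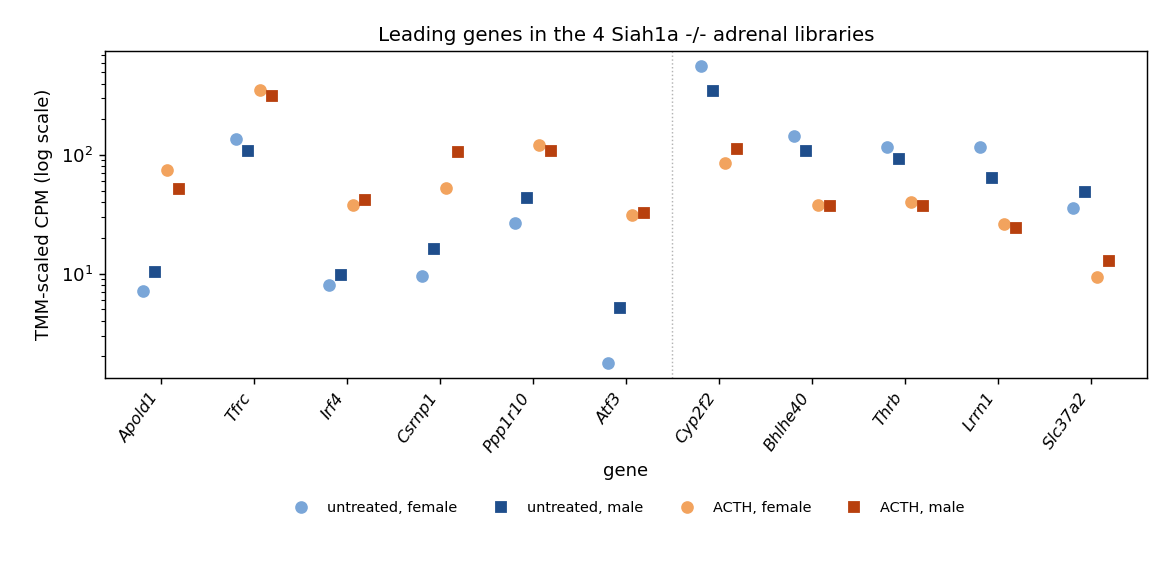
TMM-scaled CPM (log axis) of 11 leading genes in each of the 4 Siah1a-/- libraries, circles for females and squares for males, untreated in blue and ACTH in orange. Left of the dotted line both ACTH points lie above both untreated points (Apold1 7.17 and 10.4 against 75.3 and 51.6 CPM), and right of it both lie below.

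All 3 NR4A receptors were higher in both ACTH-treated glands than in both untreated ones, against 16.4% of all tested genes, with a median log2 fold change of 2.04 against 0.0077 over all tested genes. These orphan nuclear receptors act on promoters of steroidogenic genes and are known early targets of ACTH. Nr4a2 stood at 12.01 and 116 CPM in untreated glands and 559 and 239 CPM after ACTH (2.64 ± 0.98). Nr4a3 stood at 84.0 and 286 CPM and then 1148 and 376 CPM (2.04 ± 0.71), the treated female being well above the treated male. Nr4a1 showed the smallest gap, from 688 and 1518 CPM to 1694 and 1886 CPM (0.70 ± 0.37). None of the 3 passed by edgeR or DESeq2 (edgeR adjusted p = 1.00 for each). The untreated male already held several times the Nr4a2 and Nr4a3 of the untreated female, so the size of the difference depended on which animal was compared: the median of the family was 3.17 without the untreated male and 1.02 without the ACTH-treated female.

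The promoters of this family are shown because each holds the core of the cAMP response element (CRE) 4 times. The windows run from 250 bases before to 50 after the RefSeq start on GRCm38.p6, 5′ to 3′ on the gene's strand, and capitals mark the core, TGACG or its reverse complement CGTCA, so both strands were searched. Btg2, an antiproliferative early gene, is shown beside them as a higher gene whose window holds the full palindrome TGACGTCA, in which both cores overlap and which counts as 2 cores. The windows are chr15:101266596-101266895 (plus strand) for Nr4a1, chr2:57123954-57124253 (minus) for Nr4a2, chr4:48045055-48045354 (plus) for Nr4a3 and chr1:134079106-134079405 (minus) for Btg2. For Nr4a1 and Nr4a3 the RefSeq start used lies inside the gene, which begins at chr15:101253902 and chr4:48045078.
Nr4a1: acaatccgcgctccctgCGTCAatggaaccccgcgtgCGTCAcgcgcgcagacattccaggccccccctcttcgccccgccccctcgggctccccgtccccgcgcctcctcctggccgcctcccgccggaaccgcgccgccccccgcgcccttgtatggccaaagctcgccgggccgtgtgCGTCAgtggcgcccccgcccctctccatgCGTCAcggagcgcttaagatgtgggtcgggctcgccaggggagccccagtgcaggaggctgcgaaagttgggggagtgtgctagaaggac
Nr4a2: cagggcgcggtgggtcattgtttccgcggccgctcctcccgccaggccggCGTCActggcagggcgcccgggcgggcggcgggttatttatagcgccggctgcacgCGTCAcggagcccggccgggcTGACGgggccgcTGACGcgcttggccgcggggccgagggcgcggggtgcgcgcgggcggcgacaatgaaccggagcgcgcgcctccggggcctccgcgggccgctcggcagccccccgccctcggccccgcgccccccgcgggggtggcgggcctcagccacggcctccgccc
Nr4a3: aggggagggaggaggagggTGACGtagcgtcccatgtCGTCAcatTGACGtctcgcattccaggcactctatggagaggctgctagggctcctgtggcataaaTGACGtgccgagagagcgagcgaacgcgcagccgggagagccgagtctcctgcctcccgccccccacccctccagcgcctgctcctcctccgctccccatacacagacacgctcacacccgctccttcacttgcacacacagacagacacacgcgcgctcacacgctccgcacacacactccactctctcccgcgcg
Btg2: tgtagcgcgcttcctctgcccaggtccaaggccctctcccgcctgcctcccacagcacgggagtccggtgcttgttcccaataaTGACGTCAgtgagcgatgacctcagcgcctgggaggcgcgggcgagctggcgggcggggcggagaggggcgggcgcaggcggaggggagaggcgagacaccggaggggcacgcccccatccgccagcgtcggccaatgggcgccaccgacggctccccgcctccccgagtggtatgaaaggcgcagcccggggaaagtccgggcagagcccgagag
Among the 10820 tested genes with a promoter in the table, 64 (0.592%) had a window with at least 4 cores, 3707 (34.3%) had at least 1 and 380 (3.51%) had the full palindrome. Among the 55 of 75 genes that were higher by at least 2-fold in all cross pairs at a mean log2 CPM of at least 1 and had a window, 17 (30.9%) held a core and 2 (3.64%) the palindrome. The corresponding genes in the downward direction gave 28 (28%) and 3 (3%) of 100. Windows with at least 4 cores were found for 2 of the 55 (3.64%) and 2 of the 100 (2%). Nr4a2, shown above for its 4 cores, is among the 2 of 55, so that share is not independent of the windows shown. Among the 4 lists of early transcription factors and related genes, 14 of the 19 higher members with a window (73.7%) held a core, and so did 11 of the 18 other members (61.1%). A match of letters is a description, and no factor's binding was measured.

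AP-1 factors, the Fos, Jun, Maf and Atf3 proteins that bind DNA as pairs, showed 6 of 10 tested members higher in both ACTH libraries (60%) and 0 lower, against 16.4% and 17.8% of all genes. The median log2 fold change was 0.83, and 0.50 without the untreated female. Beside Atf3 these were Fosb, Maff, Mafk, Junb and Jund. Maff, a small Maf protein without an activation domain, was at 4.995 and 14.1 CPM untreated and 44.6 and 25.7 CPM treated (1.87 ± 0.59). Mafk, of the same small Maf group, was at 36.1 and 45.9 CPM and then 81.8 and 74.3 CPM (0.93 ± 0.26). For both, the untreated female was lowest. Fosb ranged from 3.06 CPM in the untreated female to 117 CPM in the treated female, while the untreated and treated males were nearly equal at 23.1 and 23.4 CPM. Junb had the same arrangement, with 176 CPM in the untreated and 179 CPM in the treated male. Fos itself, the founding member, overlapped between the groups at 28.6 and 59.2 CPM untreated and 35.5 and 74.3 CPM treated. Only Atf3 was called by DESeq2 among these factors.

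Of the EGR, IER and CSRNP early genes and their partners, 9 of 19 were higher (47.4%, against 16.4% of all genes) and 1, Ier5l, was lower, with a median of 0.71. Csrnp1 led the list. Btg2 was at 35.9 and 103 CPM in untreated and 174 and 325 CPM in treated glands (1.84 ± 0.55), short of a call (DESeq2 adjusted p = 0.0586). Nab2, a corepressor of EGR proteins, was at 18.5 and 19.3 CPM and then 39.1 and 35.9 CPM (0.99 ± 0.31), with both animals of a group close together. Ier3, a stress-inducible survival gene, was lowest in the untreated female at 10.9 CPM and highest in the treated male at 176 CPM, with 60.0 and 83.8 CPM between them. Egr1, the best known member, overlapped at 139 and 236 CPM untreated and 100.3 and 238 CPM treated. The median of the list was 1.13 without the untreated male and 0.40 without the untreated female.

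Kruppel-like factors, zinc finger proteins of differentiation and stress, had 4 of 13 members higher (30.8%, against 16.4% of all genes) and 1 lower, with a median of 0.26 that became 0.0065 without the treated female and 0.15 without the untreated male. Klf4 was at 16.0 and 52.1 CPM without and 336 and 108 CPM with ACTH (2.70 ± 0.72), and it was called by DESeq2 (adjusted p = 0.00516) but not by edgeR (adjusted p = 1.00). The treated female held about 3 times the Klf4 of the treated male, and the lowest treated value was above 2-fold the highest untreated one. Klf11 (22.5 and 17.5 CPM, then 31.4 and 44.5 CPM) and Klf16 (7.90 and 10.7 CPM, then 24.9 and 17.2 CPM) had smaller gaps, with log2 fold changes of 0.92 ± 0.35 and 1.18 ± 0.47. Over the 4 lists of NR4A, AP-1, EGR-type and Kruppel-like genes, 22 of 45 were higher and 2 lower.

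The early genes also set the 2 untreated animals apart. Of these 45 genes 35 were higher in the untreated male than in the untreated female, 18 of them (40%) by at least 2-fold, against 9.32% of all tested genes, and 3 were at least 2-fold higher in the female. Crem, whose inducible ICER isoform dampens cyclic AMP signalling, overlapped between the groups, at 40.5 and 237 CPM untreated and 403 and 162 CPM treated. Sik1, a salt-inducible kinase that restrains CREB coactivators, likewise gave 71.8 and 213 CPM and then 195 and 221 CPM. In both genes the untreated male lay within the range of the treated animals. The 2 untreated animals also differ in sex, and its part in these values was not tested.

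**Figure D2:**
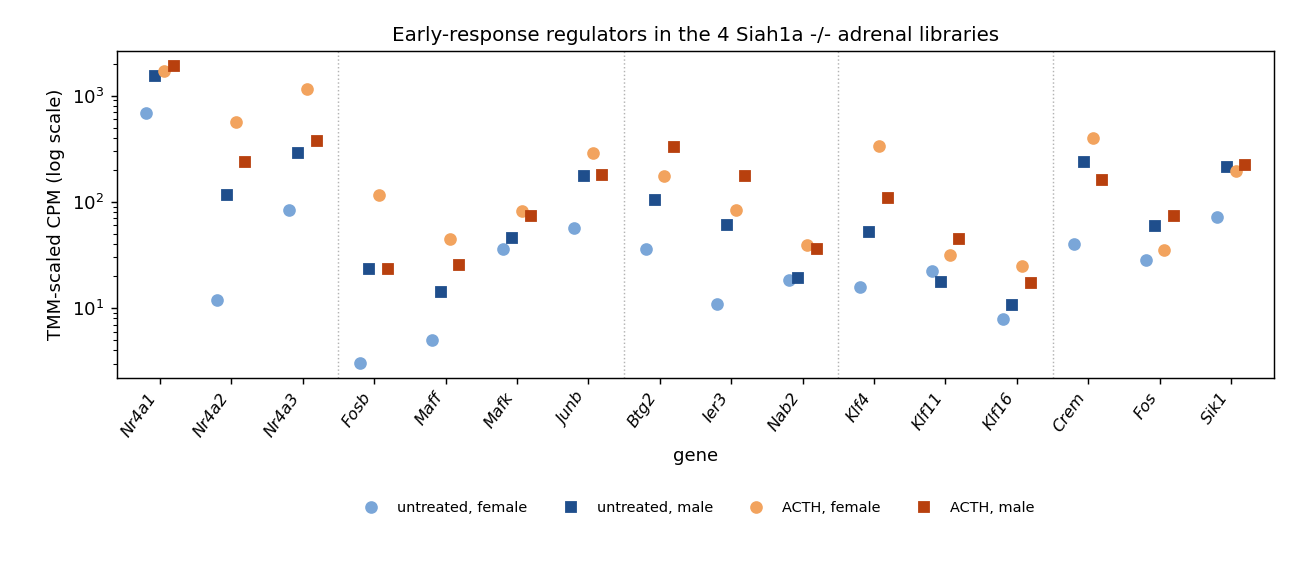
TMM-scaled CPM (log axis) of early-response regulators in each Siah1a-/- library, with dotted lines between NR4A, AP-1, EGR-type, Kruppel-like and other genes. The untreated female (light blue circles) is lowest for all but Klf11 of the genes shown, whereas the untreated male comes close to or within the range of the treated values for Fosb (23.1 against 23.4 CPM in the treated male), Junb, Crem, Fos and Sik1.

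Feedback regulators of kinase signalling and mRNA turnover had 9 of 24 members higher (37.5%) and 1, Spry1, lower (4.17%), against 16.4% and 17.8% of all genes. Zfp36, the tristetraprolin that speeds decay of AU-rich mRNAs, was at 23.6 and 20.3 CPM untreated and 45.5 and 59.7 CPM treated (1.26 ± 0.31). The MAP kinase phosphatase gene Dusp4 was at 6.45 and 13.5 CPM and then 40.3 and 25.5 CPM (1.72 ± 0.51). Spry2, an inhibitor of receptor tyrosine kinase signalling, was at 31.1 and 77.2 CPM and then 116 and 150.5 CPM (1.30 ± 0.44). Dusp1, another phosphatase gene of this kind, overlapped at 71.4 and 79.0 CPM against 65.9 and 115 CPM. None of the 24 was called by either test.

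Within the machinery of cyclic AMP itself, 6 of 26 tested genes were higher (23.1%) and 2 lower (7.69%), against 16.4% and 17.8% of all genes. Akap12, a scaffold that holds protein kinase A at the membrane, stood apart at 16.0 and 40.6 CPM in untreated and 111 and 133 CPM in ACTH-treated glands (2.11 ± 0.45, edgeR adjusted p = 1.00, DESeq2 adjusted p = 0.00436). The adenylyl cyclase gene Adcy6 was at 35.4 and 50.1 CPM and then 74.5 and 59.5 CPM (0.65 ± 0.30), and Gnas, the stimulatory G protein subunit, at 1894 and 2057 CPM and then 2600.1 and 2354 CPM (0.33 ± 0.19). Mc2r, the ACTH receptor, overlapped at 368 and 268 CPM untreated and 288 and 353 CPM treated. Its accessory protein gene Mrap overlapped as well, since the treated male held 828 CPM and the treated female 239.6 CPM.

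Among the CREB, CRTC, SIK and phosphodiesterase genes, 6 of 21 were higher (28.6%, against 16.4% of all genes) and 1 lower. Pde10a, a phosphodiesterase that breaks down cyclic nucleotides, was at 16.8 and 34.0 CPM without and 61.0 and 86.7 CPM with ACTH (1.54 ± 0.41). Sik2, a salt-inducible kinase related to Sik1, was at 11.04 and 4.999 CPM and then 32.8 and 22.5 CPM (1.79 ± 0.54), more than 2-fold apart in all cross pairs. Per1, a clock gene with a CREB-responsive promoter, was at 78.3 and 96.0 CPM and then 144 and 146 CPM (0.73 ± 0.23), the treated animals being nearly equal.

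Steroid synthesis genes had 5 of 29 members higher (17.2%), 4 lower (13.8%) and a median of 0.13, shares near those of all genes. The median turned to -0.031 without the treated male and -0.017 without the untreated female. Star, which carries cholesterol into mitochondria in the rate-limiting step, overlapped at 12649 and 18174 CPM untreated and 14138 and 17313 CPM treated. Cyp11b1, the last enzyme of corticosterone synthesis, overlapped at 5096 and 5878 CPM against 3766 and 6195 CPM. Neither gene thus separated the groups. Npc1, which exports cholesterol from lysosomes, was higher, at 70.8 and 61.1 CPM in untreated and 121 and 153 CPM in treated glands (1.05 ± 0.24), without reaching the threshold (DESeq2 adjusted p = 0.0815). Fdxr, the reductase that feeds electrons to mitochondrial P450 enzymes, was lower, at 967 and 982 CPM and then 661 and 712 CPM (-0.51 ± 0.20). Hsd3b1, the dehydrogenase that makes progesterone, was lower by a narrow gap (16453 and 14098 CPM, then 11128 and 13088 CPM, -0.34 ± 0.19). Cyp11b2, the aldosterone synthase of the zona glomerulosa, overlapped at 13.8 and 44.8 CPM untreated and 28.9 and 78.3 CPM treated, the males being above the females in both groups. Of the 21 glomerulosa markers tested the higher ones were Nr4a1 and Nr4a2 (9.52%, against 16.4% of all genes), both also counted above as NR4A receptors. Camk1 alone was lower (4.76%, against 17.8%). Both shares were below those of all genes.

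Cholesterol synthesis and uptake genes had 6 of 29 members lower and 1, Sc5d, higher. Nsdhl, a sterol dehydrogenase, was at 26.3 and 29.9 CPM untreated and 19.9 and 17.7 CPM treated (-0.58 ± 0.34). Fdps, which makes farnesyl diphosphate, was at 135 and 161 CPM and then 43.0 and 127 CPM (-0.80 ± 0.48), and the treated male nearly reached the untreated female. The share of lower members, 6 of 29, was near the 17.8% of all genes, and the median of the list was -0.14, turning to 0.19 without the untreated male and reaching -0.50 without the treated male.

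X-zone markers were lower or overlapped. Of 7 tested members 4 were lower in both treated glands (57.1%, against 17.8% of all genes) and 0 higher, with a median of -1.43 against 0.0077 over all genes. The X-zone is the innermost cortex of young mice, which regresses at puberty in males and in first pregnancy in females. Akr1c18, its steroid dehydrogenase marker, was at 7126 CPM in the untreated female and 1133 CPM in the untreated male, and at 619 and 134 CPM after ACTH (-3.45 ± 1.03). Within each sex the treated gland held the smaller amount. With sex as a term of the edgeR model Akr1c18 was the only gene called (log2 fold change -3.30, adjusted p = 0.0268), whereas without that term its adjusted p was 1.00. The model with sex leaves 1 residual degree of freedom. Abcb1b, a drug efflux transporter, was at 1463 and 1171 CPM and then 754 and 769.7 CPM (-0.79 ± 0.21). In a gland's RNA, fewer cells of a type and less RNA per cell cannot be told apart. Summed over the list, on the scale of all 8 libraries, the untreated female held 9606 CPM, the untreated male 2795, the treated female 1524 and the treated male 1117. The wild-type sums were 16139 CPM in the untreated female, 9608 in the library labelled male and untreated, and 11312 and 7625 after ACTH. The median of the list was -0.62 without the untreated female and -2.40 without the treated male. Ages of the animals, which set the size of this zone, were not used here, and their part in the difference was not tested.

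**Figure D3:**
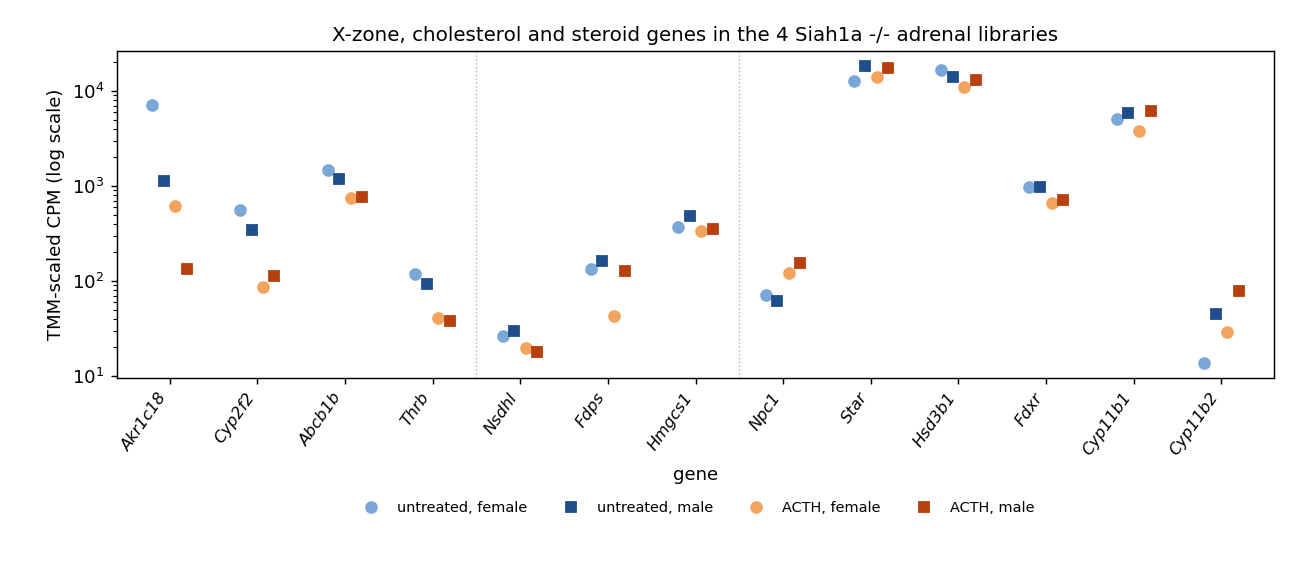
TMM-scaled CPM (log axis) of X-zone genes (left), cholesterol synthesis genes (middle) and cholesterol transport and steroid synthesis genes (right) in each Siah1a-/- library. The 4 X-zone genes and the 3 cholesterol synthesis genes shown are members that lie lower in both ACTH libraries. Not shown are the 3 of 7 X-zone markers and the 22 of 29 cholesterol genes that overlapped. Star, Cyp11b1 and Cyp11b2 overlap between the groups.

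Genes known to be induced by glucocorticoids had 9 of 23 members higher (39.1%) and 0 lower, against 16.4% and 17.8% of all genes. Their median of 0.30 became 0.59 without the untreated female, 0.55 without the treated male and 0.22 without the treated female. Mt2, a metallothionein that binds metals, was at 31.8 and 25.7 CPM untreated and 70.3 and 155 CPM treated (1.97 ± 0.41), and it was called by DESeq2 (adjusted p = 0.00593), not by edgeR (1.00). Pdk4, a kinase that shuts off pyruvate oxidation, was at 496 and 318 CPM and then 1092 and 738 CPM (1.17 ± 0.31, DESeq2 adjusted p = 0.0496). Sgk1, the serum and glucocorticoid regulated kinase, was at 270.0 and 261 CPM and then 488 and 428 CPM (0.79 ± 0.21), close within each group. By contrast Fkbp5 (148 and 120.2 CPM, then 156 and 109.9 CPM) and Tsc22d3 (212 and 214 CPM, then 246 and 156 CPM), which are standard reporters of glucocorticoid receptor activity, overlapped.

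Clock genes had 4 of 18 members higher (22.2%), near the 16.4% of all genes, and 1 lower. Besides Bhlhe40 and Per1, the repressor gene Cry2 was at 45.0 and 38.0 CPM without and 92.5 and 69.1 CPM with ACTH (0.96 ± 0.28). The labels give no time of day for the harvest. In the unfolded protein and integrated stress response 8 of 29 genes were higher (27.6%, against 16.4% of all genes) and 1 lower. Atf4, the factor at the centre of the integrated stress response, was at 257 and 287 CPM and then 425 and 518 CPM (0.80 ± 0.22). Ppp1r15a, which brings back translation after stress, was at 20.5 and 51.2 CPM and then 85.6 and 127 CPM (1.57 ± 0.47). The chaperone gene Dnajb9 was at 81.7 and 118 CPM and then 192 and 138 CPM (0.72 ± 0.29). The abundant chaperones of the same list, Hspa5 and Hsp90b1, overlapped, and so did 22 of the 24 heat shock chaperones, of which 2 were higher and 0 lower.

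Matrix, cytokine and growth factor lists each had more members higher than lower. Matrix proteases and their inhibitors had 10 of 24 members higher (41.7%) and 3 lower (12.5%), against 16.4% and 17.8% of all genes, with a median of 0.47 that became 0.019 without the treated female. Adamts1, a metalloprotease of ovulation and vessel remodelling, was at 42.7 and 82.7 CPM in untreated and 234 and 206 CPM in treated glands (1.81 ± 0.35, DESeq2 adjusted p = 0.00114). The matricellular genes Cyr61 and Ctgf, both known targets of YAP, lay in opposite directions. Cyr61 was at 31.3 and 52.9 CPM and then 109 and 75.7 CPM (1.13 ± 0.35). Ctgf was at 144 and 139 CPM and then 73.6 and 90.2 CPM (-0.79 ± 0.23). Of 21 cytokine and chemokine genes 9 were higher (42.9%) and 2 lower. Ptgs2, the inducible prostaglandin synthase, was at 2.82 and 10.9 CPM and then 34.2 and 15.0 CPM (1.84 ± 0.76). The untreated male lay below both treated animals by a narrow gap. The chemokine gene Cxcl1 had no counts in either untreated gland and 4.30 and 1.996 CPM after ACTH. The mean of the treated glands was 14.2 times a floor of 3 counts per library, and the smallest cross pair differed 8.26-fold. Il1rn, among the 2 lower members, had no counts after ACTH. Cxcl1 and Il1rn each passed the filter through 1 group alone. Their direction was thereby fixed, so they add nothing to the counts of this list. Of 28 growth factors and secreted regulators 8 were higher (28.6%) and 1 lower. Igfbp1, a binding protein of insulin-like growth factors, had no counts untreated and 10.4 and 1.35 CPM treated. Its treated mean was 26.5 times the same floor, and the smallest cross pair differed 5.60-fold. Gdnf, also among the higher members, had no counts untreated either. The filter fixed the direction of both genes, so they add nothing to the count of this list. Tcf7, a nuclear partner of beta-catenin, led the capsule and WNT list at 56.6 and 41.1 CPM and then 79.4 and 92.8 CPM (0.82 ± 0.27), a list with 3 of 28 members higher and 3 lower.

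**Figure D4:**
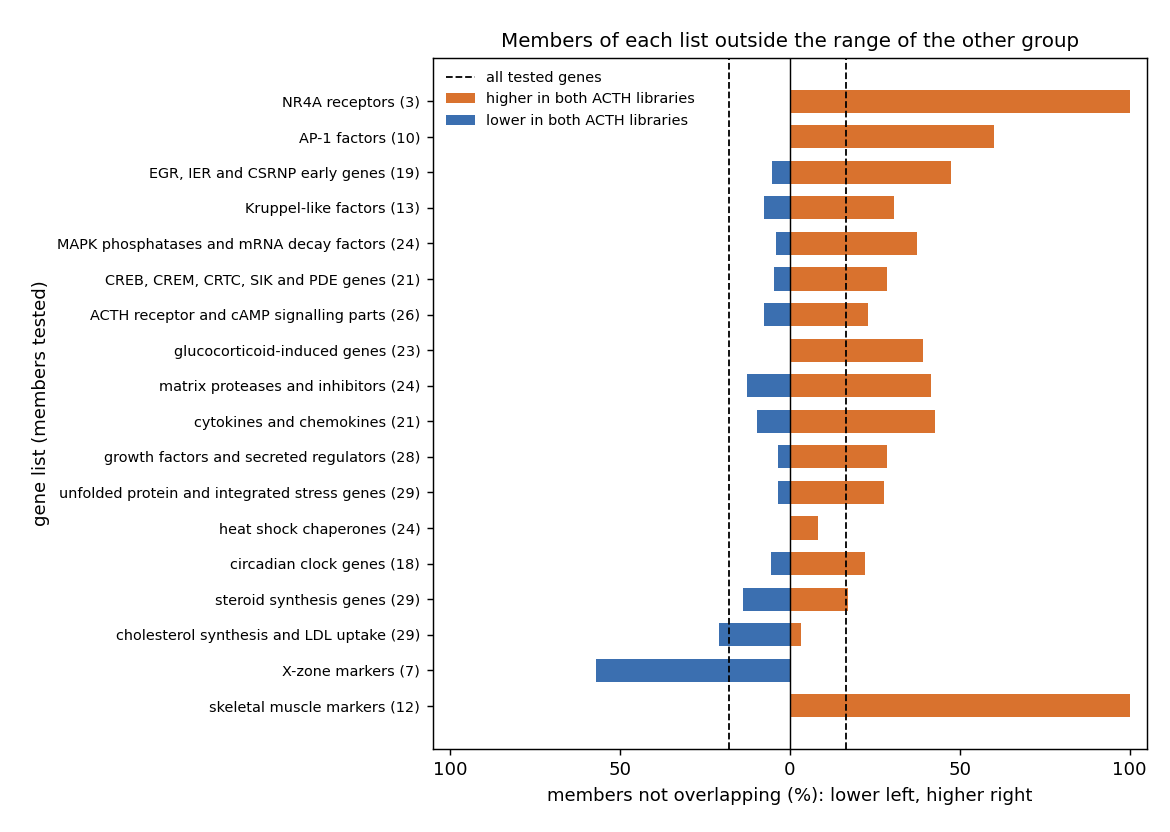
Share of the tested members of each list (number in parentheses) that lay higher (right, orange) or lower (left, blue) in both ACTH libraries than in both untreated ones, with dashed lines at the 16.4% and 17.8% of all tested genes. The 3 NR4A receptors and the 12 skeletal muscle markers are all on the higher side, 4 of 7 X-zone markers are on the lower side, and steroid synthesis genes lie near the lines.

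Among the markers of other tissues, those of skeletal muscle separated the treatment groups. All 12 skeletal muscle markers were higher in both ACTH libraries, against 16.4% of all tested genes. DESeq2 called 6 of them, against 0.22% called higher among the genes with a DESeq2 adjusted p. For 3 of the 12 neither untreated library had counts. These 3 passed the filter through the ACTH libraries alone and could only come out higher, so they add nothing to the count. Myh1 (0 and 0.533 CPM untreated) and Tnni2 (0 and 0.333 CPM) also passed through the ACTH libraries alone. Both were too low in each untreated library to pass there. Among the 6 that DESeq2 called, only Acta1 was not one of these genes. Acta1, skeletal actin, was at 4.11 and 1.47 CPM in untreated and 35.1 and 21.9 CPM in treated glands (3.36 ± 0.66). The troponin gene Tnnt3 had no counts untreated and 16.2 and 13.9 CPM treated, a mean 68.1 times the floor. The 12 markers summed to 11.9 and 4.19 CPM untreated and 141 and 98.2 CPM treated, with 7 and 6 of the 12 at 0 counts in the untreated female and male and 0 in the treated animals. In the wild type the sums were 7.17 and 32.2 CPM untreated and 17.2 and 12.8 CPM treated. An adrenal gland has no skeletal muscle of its own. In all cross pairs 10 of the 12 were at least 2-fold higher, against 1.72% of all tested genes. These 10 include genes that passed the filter through the ACTH libraries alone. The part of these markers in the other differences was not tested.

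Sympathetic neuron genes had 5 of 23 members higher (21.7%, against 16.4% of all genes), but the treated male alone stood apart. Their sum was 259 and 294 CPM untreated, 159 CPM in the treated female and 1269 CPM in the treated male. Tubb3, neuronal tubulin, was at 11.6 and 11.7 CPM untreated and 27.6 and 94.0 CPM treated (2.38 ± 0.59), and Ngfr, a neurotrophin receptor, at 0.886 and 1.00 CPM and then 3.45 and 43.2 CPM (4.61 ± 1.23). Both were called by DESeq2. The median of the list, 1.79, became -0.78 without the treated male. The treated female in turn held the largest sum of adipocyte markers (14452 CPM against 6345 to 7563 CPM in the other 3) and of fibroblast markers (1855 against 736 to 1166 CPM). Without that animal the adipocyte median went from 0.64 to -1.19. Mki67, a proliferation marker, was at 87.6 CPM in that animal and 5.63 CPM in the treated male, with 27.2 and 19.3 CPM untreated. Liver markers summed to 206 CPM in the treated male and 587 to 1220 CPM in the other 3, and kidney markers to 1.28 to 15.5 CPM, with 7 to 12 of the 14 kidney markers at 0 counts. Th, which makes the catecholamine precursor in chromaffin cells of the medulla, overlapped at 198 and 798 CPM untreated and 89.9 and 311 CPM treated. Catecholamine genes of the medulla summed to 773 CPM in the treated female and 1339 to 2344 CPM in the other 3. The granin gene Chgb was at 882 CPM in the treated female and 3175 to 3413 CPM in the other 3. The median of granins and neuropeptides, -0.14, became -1.74 without the treated male.

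The remaining lists are given as counts, against 16.4% higher and 17.8% lower of all tested genes. Of the vascular genes 5 of 34 were higher, Apold1 among them, and 3 lower. Catecholamine genes had 2 of 22 higher and 0 lower, and granins and neuropeptides 1 of 20 higher and 2 lower. Regulators of G protein signalling gave 1 of 13 higher and 2 lower, and hypoxia targets 2 of 27 higher and 1 lower. Of the SIAH, PIAS and SUMO genes 4 of 19 were higher (21.1%), Siah2 with 3 SUMO proteases, and 1, Siah1a, was lower. Macrophage markers had 2 of 15 higher (13.3%) and 4 lower (26.7%) and erythroid markers 0 of 8 in either direction. Of 8 neutrophil markers 4 were higher (50%), with sums of 30.7 and 42.9 CPM untreated and 56.4 and 45.4 CPM treated. Lymphocyte markers had 2 of 5 higher (40%) and 0 lower, and Schwann markers 3 of 8 higher and 2 lower. Adipocyte markers had 4 of 20 higher, liver markers 3 of 13, fibroblast markers 1 of 11 and cell cycle genes 1 of 27, each with 0 lower. Kidney markers had 2 of 4 lower, pancreas markers 1 of 2 and ovary or testis markers 0 of 3, each with 0 higher. Of the lymphocyte and of the kidney markers tested, 1 each had no counts in a whole group. Its direction was thus fixed by the filter.

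**Figure D5:**
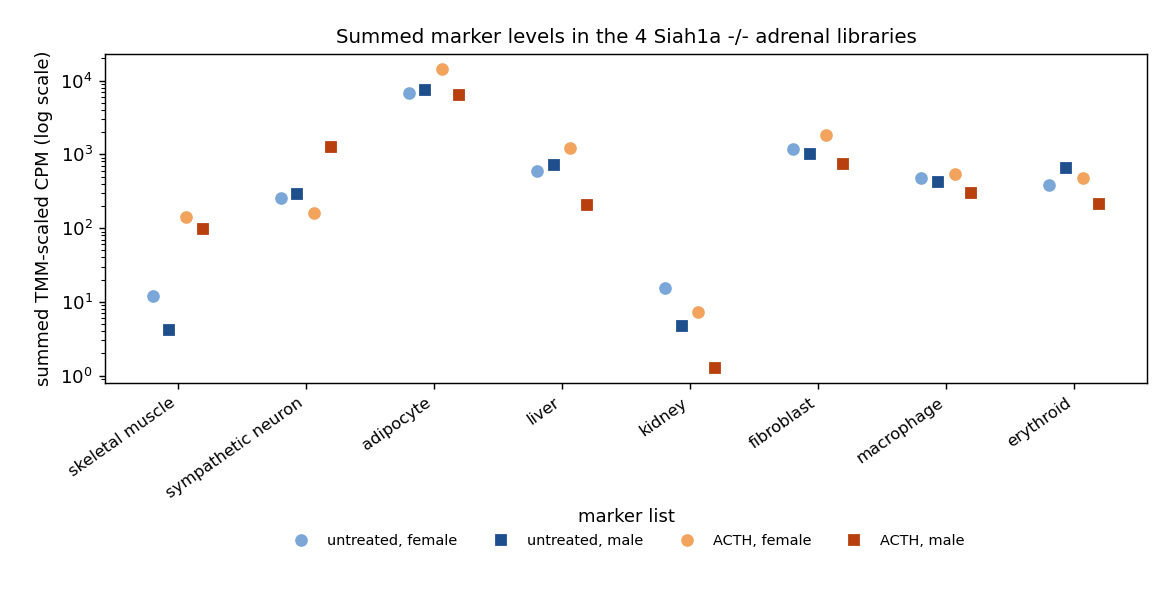
Summed TMM-scaled CPM (log axis) of marker lists in each Siah1a-/- library, on the scale of all 8 libraries. Skeletal muscle markers are higher in both ACTH libraries (141 and 98.2 against 11.9 and 4.19 CPM), sympathetic neuron genes are high in the treated male alone (1269 CPM), and adipocyte markers are highest in the treated female (14452 CPM).

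Whether these differences were particular to the knockout was tested by the contrast of the 2 responses over all 8 libraries. No gene was called by edgeR (0 of 15361, 0%, smallest adjusted p 1.00), 353 had an unadjusted p under 0.05, and DESeq2 called 9, of which 3 had a higher and 6 a lower response in the knockout. Without the ACTH-treated wild-type male, edgeR called 14 genes with a lower response. In wild-type glands 2835 genes (18.5%) were higher in both ACTH libraries and 2287 (14.9%) lower. The kidney and liver transcripts in 2 of the wild-type libraries, given above, go into this contrast, and their part in it was not tested. The NR4A median was 2.86 in the wild type and 2.04 in the knockout. Apold1 was at 8.59 and 19.3 CPM and then 12.4 and 32.1 CPM in the wild type, where the groups overlapped (test of the difference, edgeR adjusted p = 1.00).

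The genes with the smallest p for the difference were Fxyd1, Hist1h2bc, Sec14l4, Hhex and Serpina3c, none of which passed (edgeR adjusted p = 1.00). Fxyd1, a regulator of the sodium pump, was at 24.6 and 21.3 CPM and then 14.0 and 12.6 CPM in the knockout (-0.78 ± 0.39) and at 9.69 and 7.29 CPM and then 33.3 and 29.3 CPM in the wild type. Hhex, a homeobox factor, was at 34.9 and 39.1 CPM and then 19.4 and 25.7 CPM in the knockout (-0.71 ± 0.33) and at 36.9 and 27.6 CPM and then 61.7 and 59.2 CPM in the wild type. Both genes thus lay lower after ACTH in the knockout and higher in the wild type. The histone gene Hist1h2bc was at 33.4 and 48.1 CPM and then 12.2 and 8.27 CPM in the knockout (-1.99 ± 0.40, called by DESeq2) and between 56.7 and 71.6 CPM in all 4 wild-type glands. Serpina3c, a protease inhibitor, was at 11.4 and 7.998 CPM and then 1.15 and 1.78 CPM in the knockout (-2.72 ± 0.85) and between 14.7 and 33.7 CPM in the wild type.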

How the data were processed

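RNA from single adrenal glands was sequenced in 8 libraries, 2 for each of the 4 groups, of which the 4 knockout libraries are the subject here. Per the labels' protocols, libraries were made with a directional kit and read from 1 end. The submitters' processing notes name the build mm10, the aligners Bowtie2 2.2.5.0 and TopHat2 2.0.13, FastQC 0.11 and Partek 6.6. Settings, strand and the treatment of reads that map to several places are not given there. The authors deposited estimated counts per RefSeq transcript beside RPKM values, per the file headers. The RPKM values were used only as an alternative, as log2(value + pseudocount) with 1 or 0.1.

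Estimated counts were summed per gene symbol and rounded. Genes were filtered with filterByExpr (minimum count 10), scaled with TMM and tested with the quasi-likelihood test of edgeR 4.0.16 on the 4 knockout libraries, with Benjamini-Hochberg adjustment over all 14219 genes and a threshold of 0.05. Alternatives were DESeq2 1.42.0, limma 3.58.1 (voom), RLE size factors, no filter, the sex label as a block, all 8 libraries, and each library left out. The script was tested on simulated data. The difference between genotypes was fitted on all 8 libraries. Totals of 11964373 to 15182870 estimated counts put the floor of 3 counts at 0.200 to 0.242 CPM, which covers counting error only.

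Named genes were Siah1a and its paralogs, the 6 with the smallest p per direction without overlap and with a mean log2 CPM of at least 1, up to 3 non-overlapping and the 2 highest members per list, called or highest members of marker lists, and the 5 with the smallest p for the difference between genotypes. Some genes that this rule picks are not reported here. The comparison and lists were chosen with earlier results of these data known, and the description by 2-fold gaps was added after the values were seen. Promoters and positions are RefSeq's for GRCm38.p6.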

Additional observations from a re-analysis of the deposited data

Results flagged for a closer look

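For 3 of the genes named above both ACTH libraries lay on one side of both untreated libraries in the knockout and on the opposite side in the wild type. Fxyd1 had a log2 fold change of -0.78 in the knockout and 1.88 in the wild type, Hhex -0.71 and 0.90, and Siah1a -0.34 and 0.32. The test of the difference between genotypes over all 8 libraries gave unadjusted p of 0.000862, 0.00343 and 0.133 in that order, and an edgeR adjusted p of 1.00 for each. Fxyd1 and Hhex were picked as the genes with the smallest p for that difference, so they were chosen on this measure. Reads of Siah1a cannot be separated with certainty from those of Siah1b.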

How the results depend on the processing

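With 2 libraries per group and 2 residual degrees of freedom, the 0 genes called by edgeR within the knockout also came from RLE size factors, limma-voom, all 8 libraries and each fit without 1 library, where the lone sample is assumed to vary like the other group. With no filter on low counts 2 genes were called higher and 1 lower, and DESeq2 called 30 higher and 25 lower. The sex label as a replicate block called 1 lower (Akr1c18). That block sets treated against untreated animals of the same sex and leaves 1 residual degree of freedom. The cause of these differences was not tested. Without 1 library, which leaves fewer cross pairs by construction, 4180 to 5309 genes did not overlap in the upward and 4660 to 5410 in the downward direction. Likewise 741 to 1067 genes lay at least 2-fold higher and 814 to 1436 lower in every remaining pair, of which 224 to 244 and 282 to 340 were shared with the 244 and 340 of the full data. Of those, 75 and 133 reached a mean log2 CPM of 1. The sharing follows largely from the construction, since the remaining pairs are among the cross pairs of the full data. In the contrast of genotypes DESeq2 called 3 genes higher and 6 lower in the knockout, and leaving out 1 library gave 0 to 14 lower, the 14 without the ACTH-treated wild-type male. The 62 genes whose fold changes were examined kept their direction in all alternatives run. Many of them were named for lack of overlap between the groups. For those, leaving out 1 library could hardly reverse the direction, so this is no independent check. Of 234 list medians under alternatives, 52 moved by more than the spread between cross pairs, 48 of them on leaving out 1 library.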

Other observations

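Further genes called by DESeq2, though not by edgeR, were picked here after their values were seen and belong to no list above. Akr1d1, a bile acid and steroid reductase, was at 174 CPM in the untreated female, 61.2 in the untreated male, 15.2 in the treated female and 24.7 in the treated male. Stard5, a carrier of sterols, was at 107, 55.7, 15.2 and 25.3 CPM in the same order. Idh1, the cytosolic isocitrate dehydrogenase that supplies NADPH, was at 862, 559, 285 and 221 CPM. For each of these 3 genes both treated glands were below both untreated ones. Id2, an inhibitor of helix-loop-helix factors, was at 489.7 and 301 CPM untreated and 149.9 and 170.0 CPM treated.

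Slc38a2, a stress-regulated amino acid transporter, was at 417 and 592 CPM untreated and 1129 and 1017 CPM treated. Slc2a4, the insulin-responsive glucose transporter of fat and muscle, was at 40.4 and 46.4 CPM and then 99.7 and 98.2 CPM, beside the skeletal muscle markers that were higher in the same 2 glands. Tiparp, an ADP-ribosyltransferase that restrains the aryl hydrocarbon receptor, was at 20.6 and 34.99 CPM and then 127 and 76.0 CPM. In all 3 the treated values lay above the untreated ones without overlap.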
